A study of Mus musculus with 22 samples.

Results

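The acute phase proteins described here are 10 secreted proteins whose genes were taken from the deposited count table by symbol, out of 55573 genes in all: *Saa1*, *Saa2*, *Saa3*, *Orm1*, *Orm2*, *Lcn2*, *Hp*, *Hpx*, *Crp* and *Apcs*. They were measured by mRNA-seq in 22 mouse livers, 1 library per mouse. The labels call the groups Cre and FLCN KO, on chow or on MCD, a diet without methionine and choline, rich in fat and sucrose, that is used as a model of steatohepatitis. Cre mice carry Albumin-Cre with an intact *Flcn* gene (6 livers on chow, 5 on MCD), and FLCN KO mice carry Albumin-Cre with floxed *Flcn* alleles (5 livers on chow, 6 on MCD), so the recombinase was present in all 4 groups and the deletion was directed to hepatocytes while other liver cells kept the gene. The mice were 6 weeks old when the diets began and were fed them for 6 weeks. The questions put to these genes were how MCD changed them in each genotype, how the genotypes differed on each diet, and whether the response to MCD differed between genotypes.

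Acute phase proteins are plasma proteins that hepatocytes release in changed amounts when tissue is injured or infected. Interleukin-6 acts on hepatocytes through Il6ra and Il6st, the kinases Jak1 and Jak2 and the transcription factor Stat3, and interleukin-1 and tumour necrosis factor act through NF-kB, while C/EBP factors bind many promoters of these genes. Positive acute phase proteins such as the serum amyloids rise and negative ones such as albumin fall. In mice serum amyloid P component, encoded by *Apcs*, is a major acute phase protein, and C-reactive protein, encoded by *Crp*, is a minor one.

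All 10 genes are annotated as protein coding in GENCODE M21 on GRCm38. *Saa1* (ENSMUSG00000074115, minus strand, chr7:46740497-46742980), *Saa2* (ENSMUSG00000057465, plus strand, chr7:46751790-46754313) and *Saa3* (ENSMUSG00000040026, minus strand, chr7:46711998-46715700) lie side by side on chromosome 7. *Orm1* (ENSMUSG00000039196, chr4:63344560-63348163) and *Orm2* (ENSMUSG00000061540, chr4:63362449-63365878) are neighbours on the plus strand of chromosome 4. *Crp* (ENSMUSG00000037942, plus strand, chr1:172698055-172833031) and *Apcs* (ENSMUSG00000026542, minus strand, chr1:172893961-172895041) are neighbours on chromosome 1. *Lcn2* (ENSMUSG00000026822, chr2:32384633-32388252), *Hp* (ENSMUSG00000031722, chr8:109575128-109579172) and *Hpx* (ENSMUSG00000030895, chr7:105591613-105600137) are on minus strands. The first-numbered transcripts of *Saa1* and *Saa2* were 94.4% identical, and 4.67% of the 75-base windows of *Saa1* also occur in *Saa2*. Those of *Orm1* and *Orm2* were 91.0% identical with 13.8% of windows shared, so reads of each pair could be split or lost in counting and their separate values are uncertain to that extent. *Crp* overlaps a processed pseudogene, Gm38051, on its own strand.

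RefSeq promoter windows on GRCm38.p6, from 250 bases before to 50 bases after the start site, were matched for 8 of the 10 genes. The 6 shown are those of the genes with the largest changes or with opposite changes in a gene pair, read 5′ to 3′ along the gene's strand, with capitals marking matches to the STAT letters TTCNNNGAA or the C/EBP letters TTGCNNAA on either strand. They lie at chr7:46742931-46743230 (minus strand, *Saa1*), chr7:46751583-46751882 (plus, *Saa2*), chr2:32387690-32387989 (minus, *Lcn2*), chr4:63362199-63362498 (plus, *Orm2*), chr1:172697806-172698105 (plus, *Crp*) and chr1:172895005-172895304 (minus, *Apcs*).
Saa1: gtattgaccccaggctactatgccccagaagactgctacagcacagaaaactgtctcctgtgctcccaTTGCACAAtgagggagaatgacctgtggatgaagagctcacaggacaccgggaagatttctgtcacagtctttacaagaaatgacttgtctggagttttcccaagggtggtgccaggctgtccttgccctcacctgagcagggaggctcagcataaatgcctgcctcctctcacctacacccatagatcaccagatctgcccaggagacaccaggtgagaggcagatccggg
Saa2: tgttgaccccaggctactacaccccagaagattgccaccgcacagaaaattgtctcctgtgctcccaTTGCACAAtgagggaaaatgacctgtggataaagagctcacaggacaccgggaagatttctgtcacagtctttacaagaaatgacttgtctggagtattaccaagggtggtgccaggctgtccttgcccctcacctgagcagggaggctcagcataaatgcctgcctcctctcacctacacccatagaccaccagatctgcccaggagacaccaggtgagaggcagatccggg
Lcn2: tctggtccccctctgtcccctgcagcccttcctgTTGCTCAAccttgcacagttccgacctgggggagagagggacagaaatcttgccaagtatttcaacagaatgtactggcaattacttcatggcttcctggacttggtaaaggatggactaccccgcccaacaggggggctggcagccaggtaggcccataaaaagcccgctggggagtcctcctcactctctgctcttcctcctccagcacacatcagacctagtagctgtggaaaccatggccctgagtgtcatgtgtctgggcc
Orm2: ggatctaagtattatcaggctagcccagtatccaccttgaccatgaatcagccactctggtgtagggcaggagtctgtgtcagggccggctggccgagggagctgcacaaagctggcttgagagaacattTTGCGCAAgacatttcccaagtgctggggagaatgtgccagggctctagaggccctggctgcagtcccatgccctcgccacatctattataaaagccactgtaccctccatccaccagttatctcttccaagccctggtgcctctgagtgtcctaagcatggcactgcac
Crp: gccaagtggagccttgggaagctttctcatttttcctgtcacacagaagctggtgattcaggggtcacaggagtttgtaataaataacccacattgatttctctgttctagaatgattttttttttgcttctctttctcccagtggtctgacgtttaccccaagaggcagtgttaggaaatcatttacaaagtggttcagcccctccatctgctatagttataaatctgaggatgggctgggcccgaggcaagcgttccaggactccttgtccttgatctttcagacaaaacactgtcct
Apcs: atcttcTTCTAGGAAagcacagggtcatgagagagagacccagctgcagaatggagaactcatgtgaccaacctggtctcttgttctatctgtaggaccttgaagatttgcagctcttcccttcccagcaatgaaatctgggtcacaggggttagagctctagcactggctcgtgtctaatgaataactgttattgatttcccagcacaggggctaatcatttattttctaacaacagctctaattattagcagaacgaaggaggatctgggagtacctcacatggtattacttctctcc

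The windows of *Saa1* and *Saa2* were 96.0% identical over 299 aligned bases, and both held the match TTGCACAA. The C/EBP letters TTGCNNAA occurred in 6 of the 8 windows (*Saa1*, *Saa2*, *Saa3*, *Orm2*, *Lcn2* and *Hpx*) and in 10.8% of all 32851 promoter windows of the same length. Those letters were chosen after TTGCNNNAA had been searched, which matched 2 of the 8 windows (*Orm2* and *Saa3*) and 9.6% of all windows, while TTGCNNCAA matched 0 of the 8 and 2.1% of all. The STAT letters occurred only in the *Apcs* window among the 8, as TTCTAGGAA, and in 8.3% of all windows. The 10-letter NF-kB motif and the E-box CACGTG had no match in the 8 windows, against 4.5% and 7.2% of all windows. A match is a run of letters and not a measured binding site, and no match says only that the letters are not in the window.

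Before the values are compared, some libraries need to be named. Between 13751347 and 21144388 reads were counted on genes per library. The labels give no sex, but *Xist* and 4 Y-linked genes separated 10 male from 12 female livers, with males and females in every group. The 5 male livers on chow (Cre Chow 1, 5 and 6 and FLCN KO Chow 1 and 3) were also the 5 with a low share of uniquely mapped reads, so sex and mapping cannot be told apart on chow. Of the female livers, Cre MCD 1 and FLCN KO Chow 2 also held Y-linked counts at 17.9% and 13.8% of the male median, against at most 7.5% in the other 10. Cre MCD 3 held 3432 CPM (the count of a gene relative to the TMM-scaled library size) summed over 12 skeletal muscle markers, where the median of its group was 21.7 CPM. Cre MCD 4 held 164.7 CPM and FLCN KO MCD 3 held 76.8 CPM of them. All 12 markers were called higher with MCD in Cre livers, and lower in FLCN KO than in Cre livers on MCD. The part of muscle in the acute phase genes was not tested. Albumin mRNA, the defining product of hepatocytes, lay between 46620 and 126100 CPM in all 22 livers.

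*Flcn*, the deleted gene, had a median of 31.8 CPM in Cre and 19.96 CPM in FLCN KO livers on chow, with no overlap between the groups (log2 fold change −0.63, SE 0.17, adjusted p = 0.0249 from edgeR's quasi-likelihood test). On MCD the medians were 31.7 and 26.6 CPM and the groups overlapped (−0.16, SE 0.17, adjusted p = 0.567), so on that diet the *Flcn* counts do not separate the labelled genotypes. The call on chow was lost in 7 of 14 alternatives (adjusted p up to 0.244) and in 3 of the 22 fits that left out 1 liver, those without Cre Chow 6, FLCN KO Chow 3 or FLCN KO Chow 4 (adjusted p up to 0.0679), with every value between −0.70 and −0.55. Genotypes are given as labelled throughout. In the study's scheme Albumin-Cre removes exon 7 of *Flcn*, and the authors examined hepatic FLCN protein by western blot in mice on chow. The counts cover the whole gene, with the exons that remain, and all liver cells. Their overlap on MCD is therefore no test of the deletion. In bulk tissue fewer cells of a type cannot be told apart from less RNA per cell.

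Together the 10 genes took 0.831% ± 0.292 (SD, n = 6) of all counts in Cre livers on chow and 1.39% ± 0.114 (SD, n = 5) on MCD, and 1.08% ± 0.293 (SD, n = 5) and 1.31% ± 0.0959 (SD, n = 6) in FLCN KO livers. Per kilobase of the first-numbered transcript, median levels in Cre livers on chow fell in the order *Hpx* (2766 CPM per kb), *Hp* (1951), *Orm1* (1267), *Crp* (269), *Apcs* (159), *Saa1* (107), *Saa2* (70.1), *Orm2* (27.6), *Lcn2* (14.4) and *Saa3* (11.8). Of the neighbours in that order, the livers overlapped for all pairs except *Orm1* with *Crp* and *Crp* with *Apcs*. In FLCN KO livers on MCD the order of median CPM per kb was *Hpx* (4682), *Apcs* (1960), *Hp* (1337), *Orm1* (629), *Crp* (259), *Lcn2* (93.8), *Orm2* (31.0), *Saa1* (20.8), *Saa2* (7.99) and *Saa3* (5.37). *Apcs* moved from the fifth to the second place and *Saa1* from the sixth to the eighth.

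**Figure D1:**
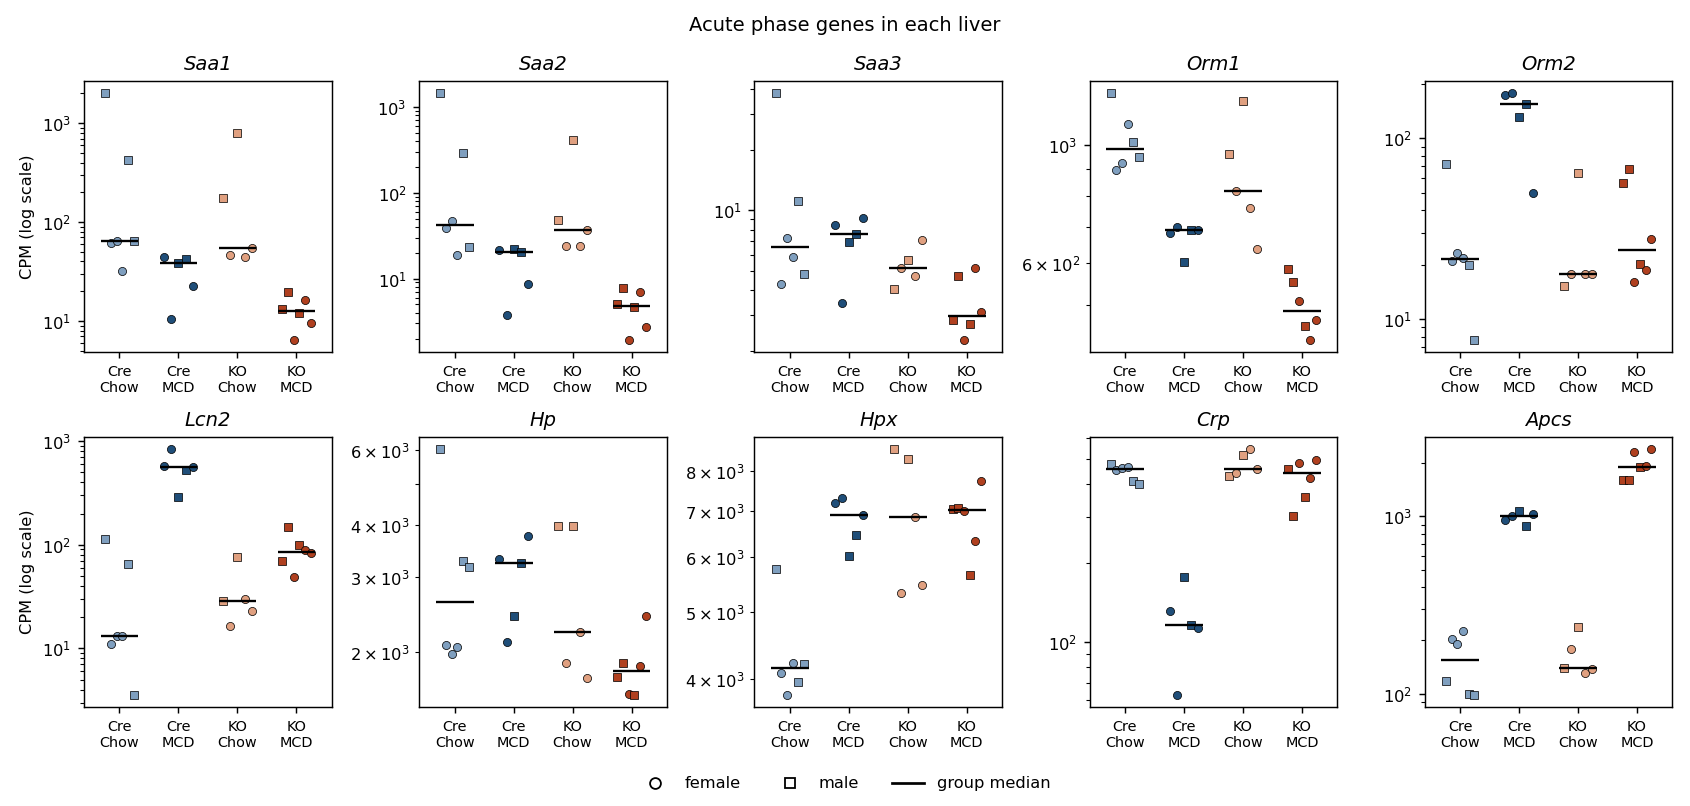
Level of each acute phase gene in every liver, as CPM on a log axis, by genotype and diet, with circles for female livers, squares for male livers and a line at the group median. *Lcn2* and *Apcs* on MCD lie above all chow livers of the same genotype in Cre mice (289.5 to 842 and 879 to 1077 CPM), *Crp* is low only in the Cre livers on MCD (62.7 to 176 CPM), and the highest *Saa1* values are single chow livers (2004, 801 and 426 CPM).

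In Cre livers MCD moved 8 of the 10 genes, in both directions. *Lcn2*, *Apcs*, *Orm2* and *Hpx* rose, and *Saa1*, *Saa2*, *Crp* and *Orm1* fell, while *Saa3* and *Hp* did not pass the test. The background on this diet was broad: 29.3% of the 14062 tested genes were higher and 28.2% lower in Cre livers at an adjusted p under 0.05 from edgeR. Among FLCN KO livers 1 gene rose (*Apcs*) and 3 fell (*Saa1*, *Saa2* and *Orm1*), against 22.5% of tested genes higher and 22.5% lower. Without the 3 high chow livers described below, 6 of the 10 passed in Cre livers, 4 higher and 2 lower, against 26.5% of tested genes higher and 25.5% lower in that fit. In a fit of the FLCN KO livers alone 7 passed, 2 higher and 5 lower, with *Lcn2*, *Saa3* and *Hp* added, against 23% of tested genes higher and 23.8% lower. All 10 genes passed the filter of a mean count of at least 10. The median response of the 10 to MCD was −0.33 in Cre and −0.38 in FLCN KO livers on the log2 scale, beside 0.01 and 0.00435 over all tested genes.

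The serum amyloid A genes encode apolipoproteins carried on high-density lipoprotein. *Saa1* on chow had 31.8 to 2004 CPM in Cre livers (median 64.9, n = 6) and 176, 46.8, 801, 44.0 and 55.2 CPM in FLCN KO livers 1 to 5. On MCD it had 44.8, 10.4, 38.2, 42.1 and 22.4 CPM in Cre livers 1 to 5 and 6.49 to 19.7 CPM in FLCN KO livers (median 12.7, n = 6). Every FLCN KO liver on MCD was below every FLCN KO liver on chow, whereas the Cre groups overlapped, and on chow the values were spread over 63.1-fold in Cre and 18.2-fold in FLCN KO livers. *Saa1* fell with MCD by 3.81 on the log2 scale in Cre livers (SE 1.04, adjusted p = 0.00357 from edgeR) and by 4.12 in FLCN KO livers (SE 1.00, adjusted p = 0.00194).

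The size of the *Saa1* change rested on few chow livers, all of them male: Cre Chow 1 (2004 CPM), Cre Chow 5 (426 CPM) and FLCN KO Chow 3 (801 CPM). Without those 3 livers, an alternative added after their values were seen, the log2 fold change was −0.82 in Cre livers (adjusted p = 0.122) and −2.64 in FLCN KO livers (adjusted p = 7.65e-05, both from edgeR). Without the 5 chow livers of low mapping it was −0.74 in Cre livers (adjusted p = 0.112), and in female livers alone −1.02 (adjusted p = 0.062). The fall in FLCN KO livers passed under every alternative run, between −5.05 and −1.91.

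*Saa2* ran beside *Saa1*, with 18.6 to 1437 CPM in Cre livers on chow (median 42.5, n = 6) and 21.2, 3.79, 22.2, 20.6 and 8.56 CPM in Cre livers 1 to 5 on MCD. FLCN KO livers 1 to 5 had 48.0, 23.8, 416, 24.1 and 36.6 CPM on chow, and FLCN KO livers had 1.95 to 7.79 CPM on MCD (median 4.84, n = 6). Its groups overlapped in Cre mice and were apart in FLCN KO mice, and the same 3 chow livers were the highest. The gene fell by 4.34 in Cre (SE 1.13, adjusted p = 0.00255 from edgeR) and by 4.49 in FLCN KO livers (SE 1.09, adjusted p = 0.00198). Without the 3 chow livers these log2 fold changes were −1.05 (adjusted p = 0.0521) and −2.76 (adjusted p = 6.58e-05).

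*Saa3*, an isoform that is also made by macrophages and fat cells, was the least abundant of the 10 per kilobase. It had 4.31 to 38.1 CPM in Cre livers on chow (median 6.56), 3.45 to 9.12 CPM in Cre livers on MCD (median 7.62), 4.05 to 7.11 CPM in FLCN KO livers on chow (median 5.17) and 2.27 to 5.13 CPM in FLCN KO livers on MCD (median 2.98). The groups overlapped on every comparison, and no comparison passed the test (log2 fold change with MCD −0.74 in Cre livers, adjusted p = 0.156, and −0.62 in FLCN KO livers, adjusted p = 0.272, from edgeR).

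The orosomucoids, or alpha-1-acid glycoproteins, bind basic drugs and lipids in plasma, and the pair moved apart in Cre mice. *Orm1* had 898 to 1251 CPM in Cre livers on chow (median 982, n = 6) and 683, 699, 602, 692 and 693 CPM in Cre livers 1 to 5 on MCD. In FLCN KO livers 1 to 5 on chow it had 963, 819, 1209, 762 and 638 CPM, and on MCD 430 to 584 CPM (median 487, n = 6). Chow and MCD livers did not overlap in either genotype. *Orm1* fell by 0.60 on the log2 scale in Cre livers (SE 0.13, adjusted p = 5.5e-04 from edgeR) and by 0.81 in FLCN KO livers (SE 0.13, adjusted p = 3.19e-05).

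*Orm2* had 7.71 to 72.3 CPM in Cre livers on chow (median 21.4, n = 6) and 174, 177, 131, 154 and 49.5 CPM in Cre livers 1 to 5 on MCD. FLCN KO livers 1 to 5 had 15.3, 17.7, 64.1, 17.7 and 17.8 CPM on chow, and 16.0 to 67.3 CPM on MCD (median 24.01, n = 6). Of the Cre livers on MCD, 4 were above all chow livers and Cre MCD 5 lay below Cre Chow 1. *Orm2* rose by 2.31 in Cre livers (SE 0.51, 4.97-fold, adjusted p = 6.19e-04 from edgeR), while FLCN KO livers showed a value of 0.38 (SE 0.51, adjusted p = 0.57). With 1 liver left out the FLCN KO value lay between 0.074 and 1.008 and did not pass (adjusted p of 0.111 or more).

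*Lcn2*, lipocalin 2, binds iron-loaded bacterial siderophores and withholds iron from microbes, and it had the largest rise with MCD in Cre livers among the 10. It had 3.54 to 115 CPM in Cre livers on chow (median 13.1, n = 6) and 572, 842, 289.5, 532 and 561 CPM in Cre livers 1 to 5 on MCD. The FLCN KO livers on chow, 1 to 5, had 28.9, 16.3, 76.0, 29.7 and 22.7 CPM, and on MCD 49.1 to 148 CPM (median 85.8, n = 6). Every Cre liver on MCD was above every other liver, and in FLCN KO mice FLCN KO Chow 3 overlapped the MCD group. *Lcn2* rose by 3.93 in Cre livers (SE 0.65, 15.2-fold, adjusted p = 2.91e-05 from edgeR). The rise was 4.71 without Cre Chow 1 and 5.76 without the 3 high chow livers, and 2.76 in male livers alone (adjusted p = 0.038). FLCN KO livers gave a log2 value of 1.37 (SE 0.62, adjusted p = 0.0772), which did not pass, and this response passed in 6 of 14 alternatives and in 3 of the 22 fits that left out 1 liver, among them without FLCN KO Chow 3 (1.87, adjusted p = 0.0265).

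Neutrophils also make *Lcn2*, and their markers moved with the diet. The summed level of 13 neutrophil markers had a median of 6.31 CPM in Cre livers on chow and 31.2 CPM on MCD, and of 6.34 and 20.5 CPM in FLCN KO livers. *S100a9* had the highest median of them on MCD, and its group medians were 1.38, 12.5, 1.60 and 8.78 CPM in the same order. On chow the median of *Csf3r* was higher, at 2.30 CPM in Cre and 1.82 CPM in FLCN KO livers. Of the 7 markers that could be tested, 6 were higher and 1 (*Ltf*) lower with MCD in Cre livers, and 5 were higher in FLCN KO livers. Over all tested genes 29.3% were higher and 28.2% lower in Cre livers, and 22.5% were higher in FLCN KO livers. Among the markers under the filter, *Ly6g*, *Camp*, *Elane* and *Mpo* were at 0 to 6 counts in every library and *Ngp* at 0 to 9. *Mmp8* had 0 to 2 counts on chow and 7 to 28 on MCD in Cre livers, and 0 to 4 and 2 to 9 in FLCN KO livers. The highest chow sum, 52.2 CPM in Cre Chow 5, held 40.5 CPM of *Ltf* and only 3.11 CPM of *S100a9*. Without that liver the log2 fold change of *Ltf* was −2.48 (adjusted p = 0.0326 from edgeR), where it was −6.32 (adjusted p = 0.00132) with it. The call was lost in 2 of 12 other alternatives, limma-voom and male livers alone (adjusted p up to 0.114). On MCD the neutrophil sums of the genotypes overlapped (18.9 to 66.6 CPM in Cre and 12.6 to 32.4 CPM in FLCN KO livers) where *Lcn2* did not. The part of these cells in the *Lcn2* levels was not tested.

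**Figure D2:**
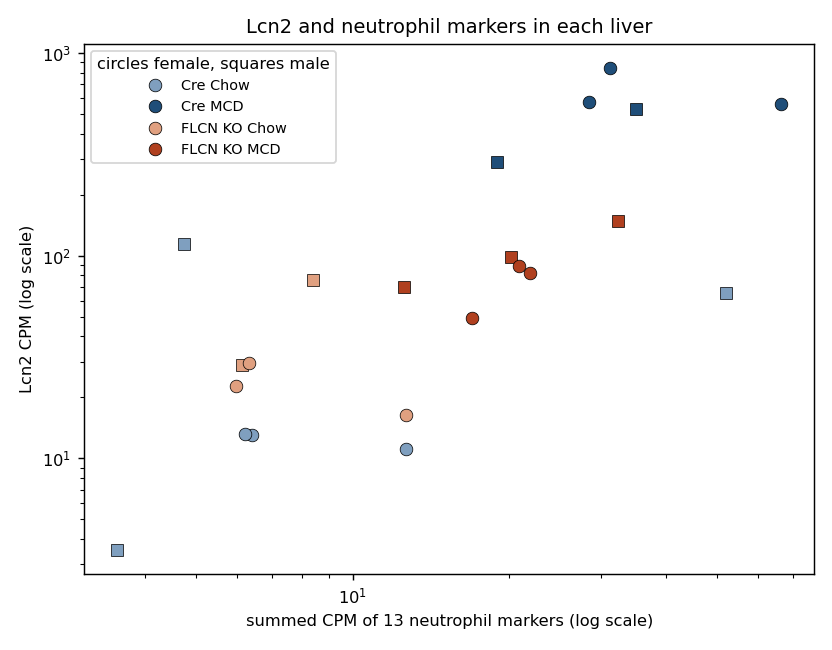
*Lcn2* (CPM, log axis) against the summed level of 13 neutrophil markers (CPM, log axis) in each of 22 livers, coloured by group, with circles for female and squares for male livers. The 5 Cre livers on MCD lie at 289.5 CPM of *Lcn2* or more, and FLCN KO livers with a neutrophil sum of the same size lie at 148 CPM or less.

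The scavengers of free haemoglobin and heme had the highest median CPM per kb of the 10 in Cre livers on chow. *Hp*, haptoglobin, which binds haemoglobin, had 1975 to 6049 CPM in Cre livers on chow (median 2625), 2107 to 3752 CPM in Cre livers on MCD (median 3245), 1732 to 3968 CPM in FLCN KO livers on chow (median 2226) and 1577 to 2428 CPM in FLCN KO livers on MCD (median 1798). The groups overlapped, and MCD gave log2 values of −0.06 in Cre (SE 0.27, adjusted p = 0.862) and −0.58 in FLCN KO livers (SE 0.27, adjusted p = 0.0915 from edgeR). On chow the *Hp* levels divided along sex and mapping, which cannot be told apart: the 5 male livers had 3171 to 6049 CPM in Cre and 3963 and 3968 CPM in FLCN KO mice, and the 6 female livers had 1975 to 2079 and 1732 to 2226 CPM. In female livers alone the log2 fold change in Cre mice was 0.59 (adjusted p = 0.0294), the other direction from the fit of all livers.

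*Hpx*, hemopexin, which binds heme, had 3794 to 5764 CPM in Cre livers on chow (median 4146, n = 6) and 7179, 7306, 6016, 6470 and 6906 CPM in Cre livers 1 to 5 on MCD. FLCN KO livers 1 to 5 had 8604, 5325, 8326, 6865 and 5478 CPM on chow, and FLCN KO livers had 5662 to 7726 CPM on MCD (median 7018, n = 6). Cre livers on chow were below the Cre livers on MCD without overlap, and the FLCN KO groups overlapped. On chow the FLCN KO livers split by sex and mapping, with 8326 and 8604 CPM in males and 5325 to 6865 CPM in females. The Cre livers on chow did not split. *Hpx* rose with MCD by 0.64 in Cre livers (SE 0.13, 1.56-fold, adjusted p = 3.13e-04 from edgeR), and its log2 fold change was −0.02 in FLCN KO livers (SE 0.13, adjusted p = 0.896).

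The pentraxins bind phosphocholine and other ligands on damaged cells and microbes and engage complement, and the 2 neighbours on chromosome 1 moved in opposite directions in Cre mice. *Crp* had 399 to 479 CPM in Cre livers on chow (median 456, n = 6) and 131, 62.7, 176, 117 and 113 CPM in Cre livers 1 to 5 on MCD. In FLCN KO livers 1 to 5 on chow it had 429, 442, 517, 545 and 457 CPM, and on MCD 302 to 493 CPM (median 439, n = 6). The Cre livers on MCD were below all other livers, and the other 3 groups overlapped one another. *Crp* fell by 1.89 in Cre livers (SE 0.18, adjusted p = 2.39e-08 from edgeR), while FLCN KO livers gave −0.19 (SE 0.17, adjusted p = 0.381).

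*Apcs* had 98.1 to 226 CPM in Cre livers on chow (median 154, n = 6) and 953, 1002, 1077, 879 and 1035 CPM in Cre livers 1 to 5 on MCD. In FLCN KO livers 1 to 5 on chow it had 139.5, 179, 239, 131 and 137 CPM, and on MCD 1600 to 2405 CPM (median 1903, n = 6). MCD livers were above chow livers in both genotypes, and FLCN KO livers on MCD were above Cre livers on MCD, without overlap. *Apcs* rose by 2.66 in Cre (SE 0.22, 6.34-fold, adjusted p = 2.12e-09 from edgeR) and by 3.56 in FLCN KO livers (SE 0.24, 11.8-fold, adjusted p = 2.83e-10). On chow the Cre livers split by sex and mapping, with 98.1 to 118 CPM in males and 191 to 226 CPM in females, and the FLCN KO livers did not.

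**Figure D3:**
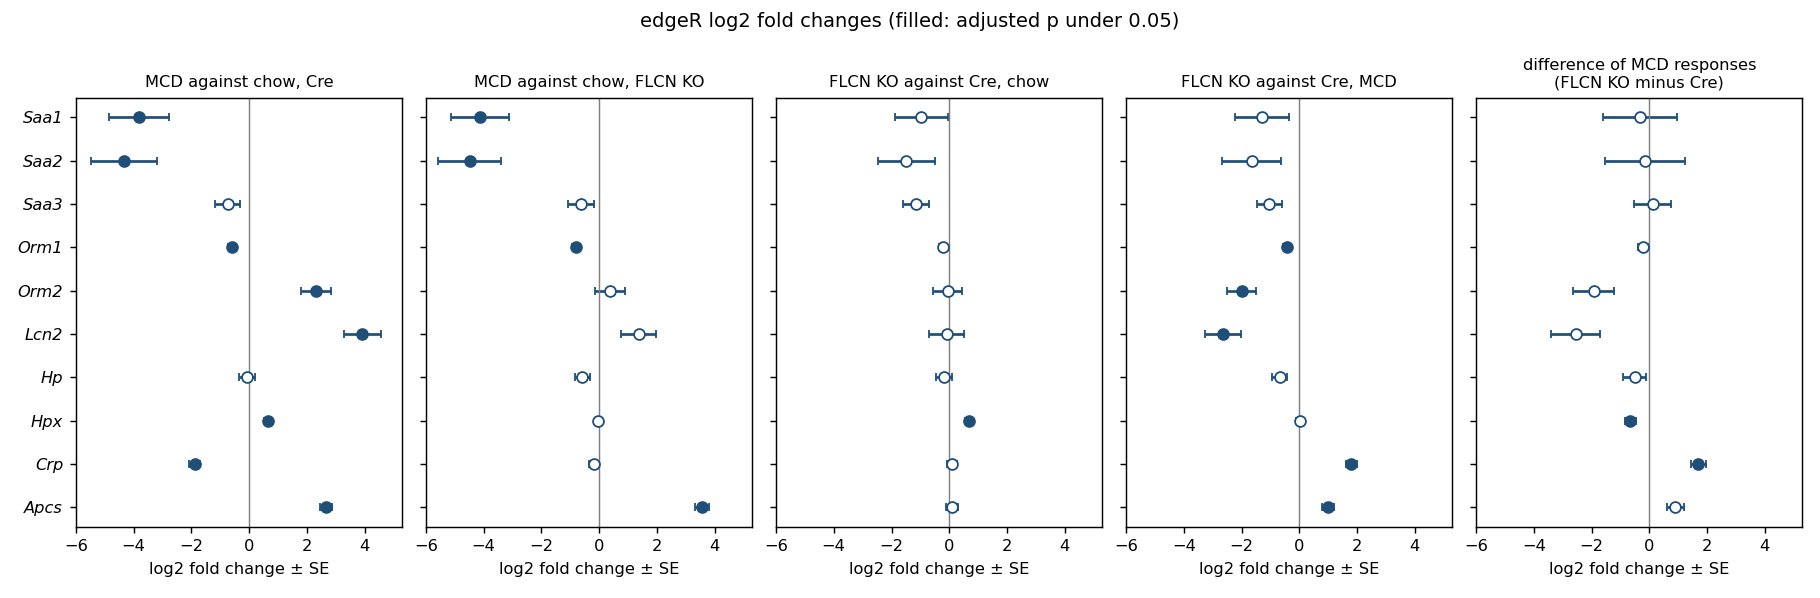
Log2 fold change ± SE from edgeR of the 10 acute phase genes in the 2 diet comparisons, the 2 genotype comparisons and the difference of the MCD responses, with filled points at an adjusted p under 0.05. *Crp* lies at −1.89 with MCD in Cre livers and at −0.19 in FLCN KO livers, *Apcs* at 2.66 and 3.56, and *Saa1* at −3.81 and −4.12 with wide error bars.

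Between genotypes on chow, *Hpx* was the only one of the 10 genes past the threshold, higher in FLCN KO livers by 0.67 (SE 0.13, 1.60-fold, adjusted p = 0.00214 from edgeR), and the groups overlapped through Cre Chow 1. Of all tested genes 5.52% were higher and 3.1% lower in FLCN KO livers on this diet. The log2 fold changes of the other 9 genes lay between −1.49 (*Saa2*, SE 0.99) and 0.11 (*Crp*, SE 0.17). For *Lcn2* the value was −0.08 (SE 0.60) in all livers and 1.25 without Cre Chow 1, Cre Chow 5 and FLCN KO Chow 3 (adjusted p = 0.0691).

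On MCD the genotypes differed for 5 of the 10 genes. *Crp* and *Apcs* were higher in FLCN KO livers, by 1.80 (SE 0.18, 3.49-fold, adjusted p = 8.8e-07 from edgeR) and 0.98 (SE 0.21, 1.98-fold, adjusted p = 0.00289). *Lcn2* was lower by a log2 fold change of −2.64 (SE 0.62, adjusted p = 0.00512), *Orm2* by −1.99 (SE 0.51, adjusted p = 0.00906) and *Orm1* by −0.43 (SE 0.13, adjusted p = 0.0255). *Crp*, *Apcs*, *Lcn2* and *Orm1* had no overlap between the genotypes, and *Orm2* overlapped through Cre MCD 5. Of all tested genes 8.06% were higher and 8.53% lower, and the median log2 fold change of the 10 genes was −0.86 beside −0.01 over all genes.

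The fit of all 4 groups used 1 estimate of the spread per gene over both diets. In a fit of the 11 MCD livers alone, 9 of the 10 genes passed, all but *Hpx*, 2 higher and 7 lower in FLCN KO livers, where 7.17% of all tested genes were higher and 7.38% lower. There *Saa1* (−1.29, adjusted p = 0.0255), *Saa2* (−1.65, adjusted p = 0.0256), *Saa3* (−1.04, adjusted p = 0.0206) and *Hp* (−0.69, adjusted p = 0.0116) were also lower in FLCN KO livers, and 9 passed as well without the 3 high chow livers, 2 higher and 7 lower, against 7.79% of tested genes higher and 8.45% lower. *Orm1* lost its call in 5 of the 22 fits that left out 1 liver, those without Cre MCD 1, Cre MCD 4 or FLCN KO MCD 4, 5 or 6 (adjusted p up to 0.0582). In male livers alone 1 of the 10 genes passed, against 2.06% of tested genes higher and 2.82% lower. Without the 2 libraries with both *Xist* and Y-linked counts 4 passed, *Orm1* being lost (adjusted p = 0.0579), against 6.36% higher and 6.2% lower.

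The difference in the MCD response between genotypes was itself tested as an interaction. It passed for *Crp*, whose log2 fold change was higher in FLCN KO livers by 1.70 (SE 0.25, adjusted p = 6.16e-04 from edgeR), and for *Hpx*, whose log2 fold change was lower by −0.67 (SE 0.19, adjusted p = 0.03), while 3.29% of all tested genes were called higher and 5.54% lower. *Lcn2* (−2.56, SE 0.85, adjusted p = 0.0623), *Apcs* (0.90, SE 0.30, adjusted p = 0.0609) and *Orm2* (−1.93, SE 0.71, adjusted p = 0.0911) did not pass, so a difference in their responses is not shown by this fit. With sex as a covariate 5 genes passed, 2 higher and 3 lower, against 3.75% of tested genes higher and 6.11% lower. Among them were *Lcn2* (−3.03, adjusted p = 0.0208), *Apcs* (0.88, adjusted p = 0.0449) and *Orm2* (−2.16, adjusted p = 0.0371). In female livers alone the interaction passed for *Lcn2* (−4.04, adjusted p = 6.29e-04) and *Apcs* (1.62, adjusted p = 0.00144) and for *Crp* (2.11, adjusted p = 0.00268), and in male livers alone, which are fewer, the values were −1.78, −0.09 and 1.17 and did not pass. Without the 3 high chow livers the value was −3.89 for *Lcn2* (adjusted p = 7.89e-04), and without Cre MCD 3, the liver with the most skeletal muscle transcripts, it was −2.72 (adjusted p = 0.0496). *Hpx* lost its call without Cre Chow 5, Cre MCD 1, FLCN KO Chow 1 or FLCN KO Chow 3 (adjusted p up to 0.0572), and in 4 of 13 other alternatives (adjusted p up to 0.231), among them female livers alone (−0.57) and male livers alone (−0.82).

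**Figure D4:**
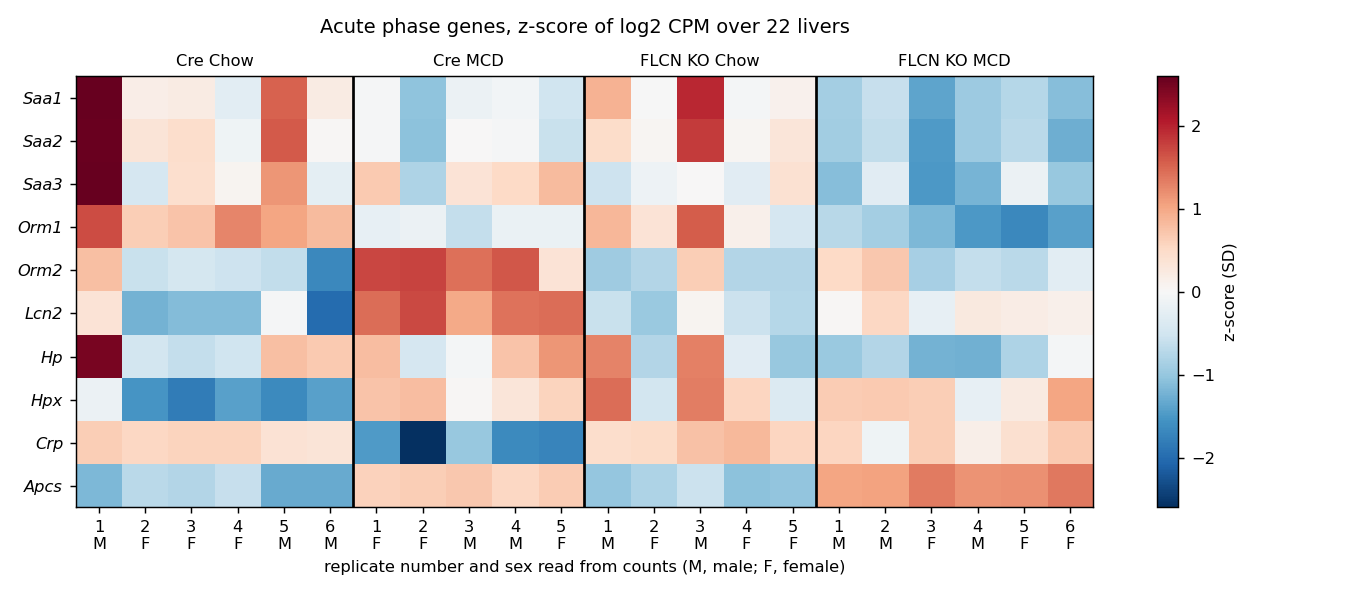
Z-score of log2 CPM of each acute phase gene over the 22 livers, with one column per liver in order of group and replicate number and the sex read from the counts under it. Cre Chow 1 and FLCN KO Chow 3 have the highest value of their groups for 9 and 7 of the 10 genes, and the share over all tested genes was not counted. *Crp* is low in the Cre livers on MCD and *Apcs* is high in the MCD livers of both genotypes.

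Within groups the 10 genes were far from equally variable. In Cre livers on chow the coefficient of variation was 7.17% for *Crp*, 12.96% for *Orm1* and 16.5% for *Hpx*, and 176% for *Saa1*, 182% for *Saa2* and 120% for *Lcn2*. On MCD it was 46.5% for *Saa1* in Cre and 36.3% in FLCN KO livers. Cre Chow 1 had the highest value of its group for 9 of the 10 genes, all but *Apcs*, and FLCN KO Chow 3 for 7 of the 10. How often these livers were the highest over all tested genes was not counted. The 9 and the 7 are therefore not read as a trait of the acute phase genes. No group on MCD had a liver that was highest for more than 4 genes.

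Other acute phase genes, in a list chosen with earlier results of these data known, moved mostly down. Of 20 other positive acute phase genes 3 were higher and 11 lower with MCD in Cre livers, and 3 were higher and 14 lower in FLCN KO livers, with medians of −0.71 and −0.73. Over all tested genes 29.3% were higher and 28.2% lower in Cre livers, and 22.5% were higher and 22.5% lower in FLCN KO livers. The fibrinogen chains *Fga*, *Fgb* and *Fgg*, which form the clot, fell by 1.20, 1.09 and 1.23 in Cre and by 1.09, 1.10 and 1.09 in FLCN KO livers. *Saa4*, a constitutive serum amyloid A, fell by 1.71 and 1.86, the protease inhibitor gene *Serpina3n* by 1.00 and 0.78, *Itih4* by 0.75 and 0.53 and *Hamp*, which encodes the iron hormone hepcidin, by 0.67 and 0.67. The *Hamp* calls were lost in 6 of the 22 fits that left out 1 liver in Cre livers (adjusted p up to 0.116) and in 12 of 22 in FLCN KO livers (up to 0.14), and the *Itih4* call in FLCN KO livers in 4 of 22 (up to 0.0579). Under the 14 other alternatives the *Hamp* call was lost in 5 for Cre and in 4 for FLCN KO livers, and the *Itih4* call in 2 for FLCN KO livers. *Orm3* fell by 2.46, *Lrg1* by 1.19 and the complement gene *C3* by 0.68 in FLCN KO livers, and their log2 fold changes in Cre livers were −1.10, −0.33 and −0.16, which did not pass. In FLCN KO livers the *Lrg1* call was lost in 3 of 14 alternatives, without the 5 chow livers of low mapping, with or without Cre MCD 3 (−0.35), and in female livers alone (−0.25, adjusted p = 0.384), and the *C3* call in male livers alone (−0.35, adjusted p = 0.332).

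The 3 that rose in both genotypes were the metallothioneins *Mt1* and *Mt2*, which bind zinc and copper, and *Il1rn*, the interleukin-1 receptor antagonist. *Mt2* had the largest change of the list, 4.90 (adjusted p = 5.19e-08 from edgeR) in Cre and 3.51 (adjusted p = 5.93e-06) in FLCN KO livers. *Lbp*, which encodes lipopolysaccharide-binding protein, had 64.4 to 113 CPM in Cre livers on chow (median 95.7) and 36.1 to 54.0 CPM on MCD (median 53.4), and 88.1 to 160.0 CPM (median 111) and 88.3 to 191 CPM (median 136) in FLCN KO livers. It fell by 0.90 in Cre livers (adjusted p = 3.46e-04), and the interaction passed for it (1.11, SE 0.26, adjusted p = 0.0129) as for *Crp*. The interaction also passed, the log2 response to MCD being lower in FLCN KO than in Cre mice, for *Steap4*, a metalloreductase (−1.17, SE 0.26, adjusted p = 0.00927), and for *Il1rn* (−1.14, SE 0.26, adjusted p = 0.0109). Of 8 negative acute phase genes 0 were higher and 6 lower in Cre livers and 1 was higher and 6 lower in FLCN KO livers. The shares over all tested genes were 29.3% higher and 28.2% lower in Cre livers and 22.5% each way in FLCN KO livers. *Alb* fell by 0.46 and 0.59, *Apoa1*, the main protein of high-density lipoprotein, by 0.99 and 0.70 and *Serpina6*, the carrier of corticosteroids, by 1.23 and 1.55, while *Ahsg*, fetuin-A, rose by 0.63 in FLCN KO livers. The largest change was that of *Pon1*, the paraoxonase of high-density lipoprotein, which fell by 1.70 (adjusted p = 2.47e-06 from edgeR) and 1.69 (adjusted p = 3.32e-06). With 1 liver left out, the calls in Cre livers were lost in 5 of 22 fits for *Alb* (adjusted p up to 0.086) and in 6 of 22 for *Serpina6* (up to 0.102). Each of these calls was also lost in 2 of 14 other alternatives. In male livers alone the values were 0.03 for *Alb* (adjusted p = 0.91) and 0.17 for *Serpina6* (adjusted p = 0.814). Without Cre MCD 3 the *Serpina6* value was −1.86. The *Apoa1* call was lost in 4 of 14 alternatives in FLCN KO livers (−0.65 to −0.44 there, adjusted p up to 0.25) and in 1 of the 22 fits that left out 1 liver, and in 2 of 14 alternatives in Cre livers (adjusted p up to 0.089).

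**Figure D5:**
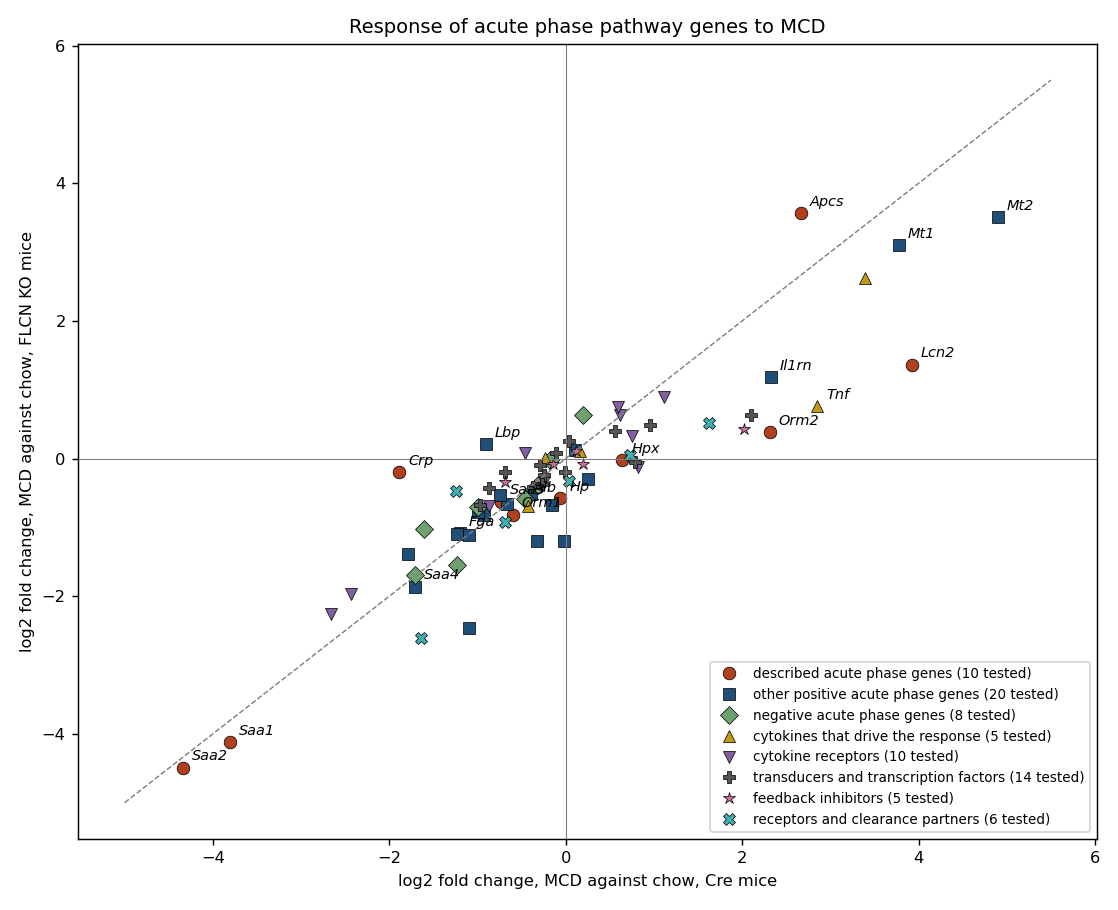
Log2 fold change with MCD in Cre (horizontal) and FLCN KO livers (vertical) of the 10 acute phase genes and of the tested genes of 7 lists around them, with the dashed line marking equal responses. *Crp* and *Lbp* lie above the line, *Lcn2*, *Orm2* and *Mt2* lie below it on the right, and *Saa1* and *Saa2* lie near it at the lower left.

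The cytokines that drive the response were rare in these livers. *Il6* was counted 0 to 2 times per library and *Osm* 0 to 5 times, and 5 of 10 listed cytokines passed the filter. Of those 5, 2 were higher and 0 lower with MCD in Cre livers, and 1 was higher and 1 lower in FLCN KO livers. *Clcf1*, a cytokine of the interleukin-6 family, had medians of 0.58 CPM on chow and 7.498 CPM on MCD in Cre livers, and 0.93 and 6.13 CPM in FLCN KO livers, without overlap. It rose by 3.40 (SE 0.30, adjusted p = 6.92e-09 from edgeR) and 2.63 (SE 0.30, adjusted p = 4.35e-07). *Tnf* was near the floor, with medians of 0.20 CPM on chow and 1.08 CPM on MCD in Cre livers, and 0.24 and 0.53 CPM in FLCN KO livers. From these low counts *Tnf* rose by 2.85 in Cre livers (adjusted p = 7.49e-05 from edgeR) and had a log2 fold change of 0.76 in FLCN KO livers (adjusted p = 0.225). *Il1b* had log2 fold changes of 0.16 and 0.11. Of 10 cytokine receptors 4 were higher and 3 lower in Cre and 3 were higher and 4 lower in FLCN KO livers. Over all tested genes 29.3% were higher and 28.2% lower in Cre livers, and 22.5% each way in FLCN KO livers. The counts of cytokines and receptors are not read as a result about these short lists. The oncostatin M receptor *Osmr* rose by 0.82 in Cre livers, the shared signalling chain *Il6st* fell by 0.34 in FLCN KO livers, and *Il6ra* (−0.46 and 0.09) and *Il1r1* (0.60 and 0.75) passed in neither. The *Osmr* call was lost in 4 of 14 alternatives (adjusted p up to 0.239), and that of *Il6st* in 5 of 14 (up to 0.887) and in 3 of the 22 fits that left out 1 liver. *Lifr*, the receptor for leukaemia inhibitory factor, changed most in this list, from a median of 393 CPM on chow to 64.2 CPM on MCD in Cre livers and from 261 to 69.4 CPM in FLCN KO livers. It fell by 2.66 (SE 0.27, adjusted p = 6.02e-08 from edgeR) and 2.26 (SE 0.26, adjusted p = 4.89e-07), and *Il1rap*, the accessory chain of the interleukin-1 receptor, by 2.43 (adjusted p = 5.94e-08) and 1.96 (adjusted p = 9.7e-07).

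Of 14 transducers and transcription factors 4 were higher and 6 lower in Cre livers and 2 were higher and 4 lower in FLCN KO livers. Over all tested genes the shares were 29.3% higher and 28.2% lower in Cre livers and 22.5% each way in FLCN KO livers. The counts of this list and of the feedback inhibitors below are not read as a result about them. *Stat3* had log2 fold changes of −0.11 and 0.08 and *Cebpb* of 0.04 and 0.26, which did not pass. *Cebpd*, a C/EBP factor, rose by 0.96 in Cre livers and was lower in FLCN KO than in Cre livers on MCD by −0.99 (adjusted p = 0.0049). *Socs3*, the feedback inhibitor of Stat3 signalling, had 0.12 and 0.11 with MCD (adjusted p = 0.797 and 0.824), and *Nfkbia*, the inhibitor of NF-kB, was lower in FLCN KO livers on MCD (−0.55, adjusted p = 0.0187), a call lost in 2 of the 22 fits that left out 1 liver (adjusted p up to 0.0683) and in 3 of 14 alternatives (up to 0.201). *Relb*, an NF-kB subunit, rose by 2.10 in Cre livers (adjusted p = 3.13e-08) and 0.64 in FLCN KO livers (adjusted p = 0.0139), a call lost in female livers alone (0.39, adjusted p = 0.202) and in male livers alone (0.83, adjusted p = 0.0538), and the interaction passed (−1.46, SE 0.29, adjusted p = 0.00396). Of 6 feedback inhibitors 5 were tested, with 1 higher and 1 lower in Cre livers. *Tnfaip3*, an inhibitor of NF-kB signalling, rose by 2.02 in Cre livers and had a log2 fold change of 0.43 in FLCN KO livers (adjusted p = 0.136), and its interaction passed (−1.59, adjusted p = 0.00537).

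Among 6 receptors and partners of these proteins, 2 were higher and 2 lower with MCD in Cre livers and 1 was higher and 2 lower in FLCN KO livers. Over all tested genes 29.3% were higher and 28.2% lower in Cre livers, and 22.5% each way in FLCN KO livers. These shares also stand beside the marker counts below, and the count of receptors and partners is not read as a result about them. *Cd163*, the macrophage receptor for haptoglobin bound to haemoglobin, fell by 1.24 in Cre livers and was higher in FLCN KO than in Cre livers on MCD (0.89, adjusted p = 0.0294 from edgeR), a call lost in 5 of the 22 fits that left out 1 liver (adjusted p up to 0.0869) and in 4 of 14 alternatives (up to 0.386). *Lrp1*, a receptor for hemopexin bound to heme, fell by 0.69 and 0.93. *Slc22a17*, a lipocalin 2 receptor, rose by 0.73 in Cre livers, and its call was lost in 5 of those 22 fits (adjusted p up to 0.0673) and in 7 of 13 alternatives. *Hmox1*, the heme oxygenase, rose by 1.63 in Cre and 0.52 in FLCN KO livers. On chow it had 29.4 to 32.9 CPM in FLCN KO and 16.7 to 25.7 CPM in Cre livers and was higher in the former by 0.67 (adjusted p = 0.00134). That call was lost in 3 of 14 alternatives (adjusted p up to 0.147). Of 12 macrophage markers 5 were higher and 2 lower in Cre livers and 1 was higher and 4 lower in FLCN KO livers, with median sums of 615 and 649.6 CPM in Cre and 688 and 469 CPM in FLCN KO livers, and of 8 hepatocyte markers 5 were lower and 0 higher in each genotype. The part of these cells in the acute phase genes was not tested.

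As a description, the genes whose z-scores over the 22 livers lay closest to *Saa1* were *Saa2* (root mean square distance 0.149), *Pdia3* (0.448), *Ik* (0.455), *Dnajb11* (0.460) and *C8a* (0.486), where the median over 12846 compared genes was 1.39. Those closest to *Lcn2* were *Ube2o* (0.439), *Ddx1* (0.441), *Dynll1* (0.444), *Sec22b* (0.446) and *Xpnpep1* (0.448), with the same median. *Saa1* and *Saa2* share reads in part, and the 22 livers are of both diets and genotypes, so these distances span the group differences.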

How the data were processed

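Livers of 22 mice were sequenced as mRNA, 1 library each. Per the study's methods and processing notes, the authors trimmed reads with Trimmomatic, aligned them to GRCm38 with STAR and counted them with HTSeq. The adapters carried molecular identifiers, and whether reads were collapsed on them and which annotation was used are not given in the sources used here. The authors deposited raw counts per gene, without normalization, for 55573 genes.

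The 14062 genes whose count averaged at least 10 were scaled by TMM and tested in 1 fit of the 4 groups with edgeR 4.0.16 in R 4.3.3 (two-sided quasi-likelihood F test, Benjamini-Hochberg adjustment over all tested genes, threshold 0.05), where the study used limma. The SE of a log2 fold change was its size divided by the root of F. CPM were TMM-scaled, and z-scores used log2 CPM with a prior count of 2. The code was tested on simulated data. The 10 genes and all lists were chosen with earlier results of these data known. Named were the 10 genes, chosen genes of each list whatever they did (1 of them is not reported here), some called genes with the largest change in their list, which the rule allowed, and the 5 genes most like *Saa1* and *Lcn2*. *Mt1*, *Il1rn*, *Il1rap*, *Nfkb2*, *Ltf*, *S100a9* and the neutrophil genes under the filter were named after their values were seen. Positions are from GENCODE M21, promoters from RefSeq. Replicate numbers did not pair the mice. Alternatives were DESeq2 1.42.0, limma-voom (limma 3.58.1), RLE factors, other filters, only the groups compared, sex as a covariate, the replicate block, sets of livers left out and each liver left out in turn.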

Additional observations from a re-analysis of the deposited data

Results flagged for a closer look

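In 12 of 40 groups of livers (10 genes in 4 groups) 1 liver lay far from the others by Dixon's criterion, applied to CPM without a log. For normally distributed values chance meets it in about 1 in 20 groups. The CPM of several of these genes were strongly skewed, so that rate cannot be set against the 12, and a log scale was not tried. The genes are not independent of one another, so these are not 12 separate events. Cre Chow 1 stood apart for *Saa1* (2003.6 CPM, the next liver at 426 CPM), *Saa2* (1436.9 CPM), *Saa3* (38.106 CPM), *Orm2* (72.259 CPM), *Hp* (6048.6 CPM) and *Hpx* (5764.5 CPM). FLCN KO Chow 3 stood apart for *Saa1* (801.28 CPM), *Saa2* (416.42 CPM), *Orm2* (64.142 CPM) and *Lcn2* (76.031 CPM). Both are male livers with a low share of uniquely mapped reads, and the part of either in these values was not tested. On MCD, Cre MCD 3 was low for *Orm1* (601.58 CPM) and also held the most skeletal muscle transcripts, and FLCN KO MCD 6 was high for *Hp* (2428.2 CPM).

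The response to MCD differed between the genotypes, by the interaction in edgeR, for *Crp* (a log2 difference of 1.6962, FLCN KO minus Cre), *Lbp* (1.1086) and *Hpx* (−0.6673). Of the other listed genes of the pathway it passed for *Tnfaip3* (−1.5884), *Relb* (−1.4619), *Steap4* (−1.1715), *Il1rn* (−1.1413), *Hmox1* (−1.1031), *Nfkb2* (−0.83122) and *Tnfrsf1a* (−0.42399), which are differences of the responses and not of levels. On chow *Hmox1* was higher in FLCN KO than in Cre livers (0.67, adjusted p = 0.00134), and *Relb* (0.65, adjusted p = 0.0597) and *Tnfaip3* (0.54, adjusted p = 0.173) had values above 0 there that did not pass. The call for *Tnfrsf1a* was lost in 4 of the 22 fits that left out 1 liver (adjusted p up to 0.0633) and in 7 of 13 other alternatives (up to 0.622). That for *Nfkb2* was lost in 6 of 13 (up to 0.175), that for *Steap4* in 3 of 13 (up to 0.193) and that for *Hpx* in 4 of 22 and 4 of 13 (up to 0.231), and the calls for *Crp* (adjusted p = 0.158), *Lbp* (0.855), *Tnfaip3* (0.211), *Relb* (0.0962), *Il1rn* (0.295) and *Hmox1* (0.0865) in male livers alone.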

How the results depend on the processing

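In all, 22 fits left out 1 liver each and 14 other alternatives were run. The fits of female livers, of male livers, without the 2 libraries holding both *Xist* and Y-linked counts, and without the 3 high chow livers were chosen after seeing the data. Male livers alone are few, and chow males are also the libraries of low mapping, so their smaller counts cannot be told apart from either. Of 10 listed cytokines 5 did not reach a mean count of 10, and all 10 acute phase genes did. In males alone calls were also lost for *Orm2*, *Hpx*, *Cebpd*, *Itih4* and *Lbp* (MCD in Cre), *Apcs*, *Orm2*, *Lcn2* and *Cebpd* (genotype on MCD) and *Alb* and *Serpina6* (MCD in FLCN KO). The cause of the changes below was not tested.

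The genes called at an adjusted p under 0.05 numbered 8089 (MCD in Cre), 6328 (MCD in FLCN KO), 1212 (genotype on chow), 2333 (genotype on MCD) and 1242 (interaction). In males alone they were 4684, 2916, 339, 687 and 62. The genotype on chow gave 494 genes without the 5 low-mapped chow livers, 653 without these and Cre MCD 3, 624 in females and 619 without the 3 high chow livers, and 670 to 1429 with 1 liver left out. The interaction gave 779 without the 5, 690 without the 2 mixed libraries, 708 without the 3, and 819 to 1426 with 1 liver left out. With the replicate number as a block it gave 552, and same-numbered mice correlated by −0.0842, −0.0112, 0.0614 and 0.129 on average after group means were removed, so the numbers did not pair the mice.

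Of the 10 genes, 7 passed for MCD in FLCN KO livers in a fit of only those groups. For genotype on MCD 9 passed with only the groups compared, without the 5, without the 5 and Cre MCD 3, and without the 3, against 1 in males. Over all genes this comparison gave 687 to 2889 calls under the 14 other alternatives. No share is given here for the fits without the 5, with or without Cre MCD 3. Their counts are not read as a result about the 10 genes. For the interaction 4 passed with DESeq2, without the 5 and Cre MCD 3, in females and without the 3, 5 with sex as a covariate, 1 with no filter and 0 in males (edgeR, 2 at an unadjusted p under 0.05), and 1 to 4 with 1 liver left out. Over all genes the interaction gave 62 to 1701 calls under the 13 other alternatives. No share is given here for DESeq2, females, no filter or the fit without the 5 and Cre MCD 3. Those counts are not read as a result about the 10 genes.

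These log2 fold changes turned sign. MCD in Cre, *Saa3*: 0.2655 in females, 0.2898 without the 5, 0.2978 without the 5 and Cre MCD 3, 0.3508 without the 3. MCD in Cre, *Hp*: 0.5878, 0.5459, 0.6098 and 0.3574 in the same order, 0.02389 with voom, 0.06666 with the replicate block and 0.06949 with sex as a covariate. In males *Alb* was 0.0329, *Serpina6* 0.1665 and *Flcn* 0.1305. MCD in FLCN KO, *Hp* was 0.008702 in females, and *Hpx* 0.2529 in females, 0.2083 without the 5 with or without Cre MCD 3, and 0.05099 without the 3.

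Genotype on chow, *Lcn2* was 0.8799 in females, 0.8796 without the 5, 0.8798 without the 5 and Cre MCD 3, 1.246 without the 3, 0.6394 with voom, 0.2262 with the block, 0.1394 with sex and 0.09634 without the 2. *Apcs* was −0.4706 in females and without the 5, with or without Cre MCD 3, and −0.2913 without the 3. *Orm2* was 0.001328 with voom, 0.2943 in males and 0.05721 without the 2, and *Orm1* 0.04833 in males. Without the 3, *Saa1* was 0.5274, *Saa2* 0.05947 and *Hp* 0.07926. Genotype on MCD, *Hpx* was −0.02293 in females, −0.0102 at a mean count of at least 50, −0.01522 with the block, −0.006423 with sex and −0.03371 without the 5 and Cre MCD 3, and *Flcn* was 0.2379 in females. Interaction, *Saa3* was −0.9538 in females, −0.3685 with voom, −0.08627 with sex, −0.9971 without the 5, −1.005 without the 5 and Cre MCD 3 and −0.9555 without the 3. *Saa1* was 0.1426 and *Saa2* 0.4346 with the block, and *Apcs* −0.09119 in males.

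With 1 liver left out, the ranges that crossed 0 were −0.9117 to 0.09085 (*Saa3*), −0.1631 to 0.2423 (*Hp*) and −0.2572 to 0.01171 (*Flcn*) for MCD in Cre, and −0.1051 to 0.06633 (*Hpx*) for MCD in FLCN KO. On chow they were −2.46 to 0.7898 (*Saa1*), −3.222 to 0.3957 (*Saa2*), −0.6863 to 0.497 (*Orm2*), −0.5908 to 0.7051 (*Lcn2*), −0.3401 to 0.1329 (*Hp*) and −0.08683 to 0.2202 (*Apcs*). On MCD it was −0.03371 to 0.05381 (*Hpx*), and for the interaction −2.082 to 1.168 (*Saa1*), −2.043 to 1.575 (*Saa2*) and −0.7155 to 0.2869 (*Saa3*).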
